A study of Mus musculus with 31 samples.

Results

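The stefin A gene cluster of mouse chromosome 16 is a run of closely related genes for small inhibitors of cysteine proteases. Stefins, also called type 1 cystatins, lack a secretion signal, stay in the cytosol and block papain-like cathepsins such as cathepsins B, H, L and S when these leave lysosomes. Stefin A genes are known for their expression in epidermis, where the protein is part of the cornified envelope, and in neutrophils and other myeloid cells. The mouse carries several copies of these genes side by side. The 7 members taken here were *Stfa1*, *Stfa2*, *Stfa3*, *Stfa2l1*, *BC100530*, *BC117090* and *Gm5483*, found by symbol among 39179 genes. They were selected on measured levels in the same tumors, without a record of which comparison was used. Their tumor values are therefore a description with no test, and the counts of members that passed the call rule are tallies of those same values, given beside the share of all genes and read as no support.

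Line 20967 is a mouse melanoma line with an Nras+LSL-G12D allele on C57BL/6, an oncogenic *Nras* switched on by Tyr::CreERT2+/o, an inducible Cre that a tyrosinase promoter drives. Parental cells, or cells in which the glucocorticoid receptor gene *Nr3c1* had been edited by CRISPR-Cas9 (GR KO), were grown in the skin of wild-type C57BL/6 mice. The mice received clobetasol propionate ointment (0.05%, 3 applications a week), a potent glucocorticoid (GC), or a treatment labelled Control, with 5 mice in each of the 4 groups. The paper names a cream, cetraben, as the control for its topical drugs. Drug and ointment base therefore cannot be told apart. The GR KO line came from colonies of single cells and the labels name 1 such line, so genotype and line cannot be told apart, and the host cells of each tumor kept their receptor. Cultures of the same lines served as background without host cells: 3 parental with DMSO, 2 parental with GC, 3 GR KO with DMSO and 3 GR KO with GC. The culture dose is 10 µM in the treatment label and 1 µM in the library name. Ages were not given.

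RNA was counted as tags from 3′ ends, so counts were not divided by gene length. Totals ran from 15528066 to 26386770 counts in tumors and from 14441166 to 22463188 in cultures. Levels are given as CPM, read counts relative to the total of their library as scaled by TMM. A count of 3, taken as the floor, corresponded to between 0.112 and 0.220 CPM in a tumor and between 0.136 and 0.207 CPM in a culture. Floors cover counting error only. *Nr3c1* had 873 to 1401 counts in parental control tumors, 466 to 1090 in parental GC tumors, 282 to 824 in GR KO control tumors and 402 to 1291 in GR KO GC tumors; tags at the 3′ end do not check the edit. Of the melanocyte lineage markers, *Tyr* had no count in any tumor or culture, *Dct*, *Mlana* and *Sox10* had none in cultures, and *Mitf* averaged 32.5, 42.1, 26.1 and 33.3 CPM in parental control, parental GC, GR KO control and GR KO GC tumors. The gene model *Gm26924* took between 0.248% and 16.3% of a tumor's counts, with over 10% in GR KO control tumors 1 and 5. GR KO control tumors 1, 2, 3 and 5 all held at least 6.57%, with 13442, 14887, 15150 and 14335 genes detected, against 16980 genes in tumor 4 of that group. GR KO GC tumor 4 held 6.65%, with 15224 genes detected, and parental control tumor 1 held 5.55%, with 15578. All these tumors enter each comparison that uses their group, and the part of these differences in the results was not tested.

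Clobetasol went with lower levels of the cluster in tumors of both lines. The 5 members that passed a filter of 0.5 CPM in at least 3 tumors all had lower means in GC than in control tumors, by 3.33-fold to 12.8-fold in parental and by 1.75-fold to 3.42-fold in GR KO tumors. For each of these members the control tumors of the lines overlapped, and parental GC tumors had the lowest mean. Fewer cells that express these genes and less RNA per cell cannot be told apart in bulk tumors.

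*BC100530* is the most abundant member and a close copy of *Stfa1*. Its level in parental control tumors 1 to 5 was 562, 787, 1030.3, 618 and 1715 CPM, and in parental GC tumors 151, 248, 173, 173 and 286 CPM. All 5 treated parental tumors lay below all 5 controls, with control tumor 5 above the others. GR KO control tumors 1 to 5 were at 1487, 1361, 606, 995 and 1146 CPM, and GR KO GC tumors at 367, 528, 908, 469 and 687 CPM. In that line the groups overlapped: GC tumors 3 and 5 were above control tumor 3, the lowest control. Group means ± SD (n = 5 each) were 943 ± 469 CPM in parental control, 206 ± 57.6 CPM in parental GC, 1119 ± 344 CPM in GR KO control and 592 ± 211 CPM in GR KO GC tumors. Clobetasol against control gave a log2 fold change of −2.19 (SE 0.315), a 4.57-fold lower level, in parental tumors. The same comparison gave −0.92 (SE 0.304), a 1.89-fold lower level, in GR KO tumors.

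*Stfa3* encodes stefin A3 and lies at the outer end of the cluster. It was at 189.8, 236, 356, 190.0 and 369 CPM in parental control tumors 1 to 5 and at 19.4, 77.3, 28.2, 54.6 and 51.2 CPM in parental GC tumors. The lowest parental control was above the highest treated tumor. GR KO control tumors held 358, 391, 185, 308 and 449 CPM, and GR KO GC tumors 42.3, 70.1, 144, 109 and 129 CPM. Here too every treated tumor was below every control. Means were 268 ± 88.3, 46.2 ± 22.9, 338 ± 99.8 and 98.8 ± 41.9 CPM in parental control, parental GC, GR KO control and GR KO GC tumors. The log2 fold change with clobetasol was −2.54 (SE 0.361) in parental and −1.77 (SE 0.351) in GR KO tumors, 5.81-fold and 3.42-fold lower levels.

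*Stfa1*, the gene of stefin A1, spread more among parental controls than within any other tumor group. It was at 19.0, 40.5, 117, 26.8 and 243 CPM in those controls, against 4.44, 2.72, 6.85, 6.16 and 14.8 CPM in parental GC tumors. The treated tumors were all lower, and control tumors 3 and 5 stood well above the other controls. GR KO control tumors were closer together, at 94.7, 89.6, 59.1, 77.3 and 109.8 CPM, and GR KO GC tumors were at 39.8, 19.0, 81.7, 36.2 and 69.2 CPM. GC tumors 3 and 5 reached into the range of the GR KO controls. Means were 89.2 ± 94.4, 6.998 ± 4.66, 86.1 ± 19.1 and 49.2 ± 25.6 CPM in the same order of groups. With clobetasol the log2 fold change was −3.68 (SE 0.589), or 12.8-fold, in parental tumors, and −2.85 without parental control tumor 5. In GR KO tumors it was −0.81 (SE 0.529).

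*Stfa2*, the gene of stefin A2, was scarcer, at 5.29, 3.45, 16.5, 2.81 and 38.9 CPM in parental control and 0.0510, 1.26, 0.796, 2.61 and 4.10 CPM in parental GC tumors. Those groups overlapped, since treated tumor 5 exceeded control tumors 2 and 4. Treated tumor 1 had 1 count, under its floor of 0.153 CPM. GR KO control tumors held 15.8, 37.3, 16.9, 19.2 and 30.4 CPM, and GR KO GC tumors 8.20, 5.28, 14.2, 18.0 and 12.8 CPM. Only GC tumor 4 was within the range of the GR KO controls. Means were 13.4 ± 15.3, 1.76 ± 1.61, 23.9 ± 9.48 and 11.7 ± 4.99 CPM. Clobetasol gave a log2 fold change of −2.93 (SE 0.709) in parental tumors, −1.98 without parental control tumor 5, and −1.03 (SE 0.652) in GR KO tumors.

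*BC117090*, a further paralog, stayed within a few CPM of the floor. Its values were 1.02, 2.21, 1.08, 3.36 and 4.96 CPM in parental control and 0.408, 0.680, 1.19, 0.689 and 0.798 CPM in parental GC tumors. Treated tumor 3 lay above control tumors 1 and 3, so those groups overlapped. In GR KO tumors it was at 4.40, 3.46, 2.94, 2.43 and 3.69 CPM with control and at 1.78, 1.29, 2.25, 1.32 and 1.91 CPM with GC, without overlap. The log2 fold changes were −1.74 (SE 0.518) in parental and −0.98 (SE 0.503) in GR KO tumors. Means ± SD were 2.52 ± 1.66, 0.754 ± 0.285, 3.38 ± 0.747 and 1.71 ± 0.405 CPM.

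The other members, *Stfa2l1* and *Gm5483*, did not pass the filter. *Stfa2l1* had 3 counts in parental control tumor 2, and 1 count each in parental control tumor 4, GR KO control tumor 4 and GR KO GC tumor 2. *Gm5483* had 22 counts in parental control tumor 5 and 1 count in parental GC tumor 3. Both were at 0 in every other tumor. In the 11 cultures the cluster was near silent: *BC100530* had 1 count in 1 library of each of the 4 culture groups, *Stfa3* had 1 count in 1 GR KO DMSO culture, and the others had none. No member passed the filter in cultures, so none was tested there, and any level was under the floor of each culture.

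**Figure D1:**
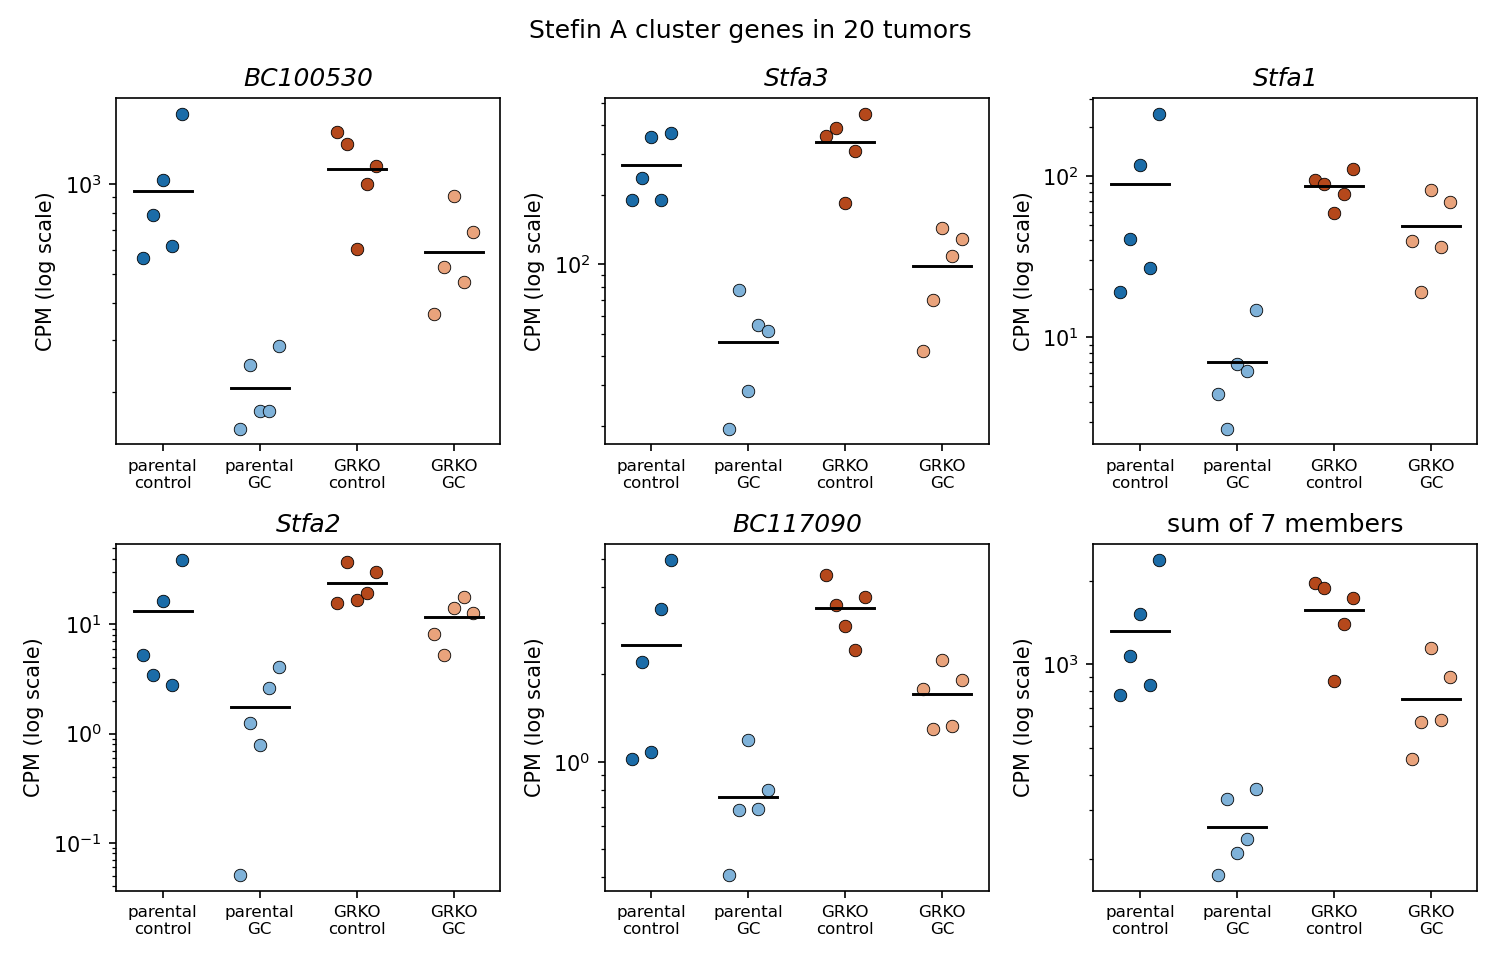
Level of the 5 members that passed the filter and of the sum of 7 members in each of 20 tumors, on log axes in CPM, with 1 point per tumor and a line at each group mean (n = 5). Parental GC tumors have the lowest mean in every panel, from 0.754 CPM for *BC117090* to 262 CPM for the sum.

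The summed level of the 7 members does not depend on how the reads counted were divided among the members. It was 777, 1069, 1520.2, 841 and 2373 CPM in parental control tumors 1 to 5 and 176, 329.7, 210.4, 237 and 357 CPM in parental GC tumors. Those groups did not overlap. GR KO control tumors summed to 1959.8, 1883, 869, 1402 and 1739 CPM, and GR KO GC tumors to 459, 623, 1149.7, 633 and 899.9 CPM. GC tumors 3 and 5 of that line were above its control tumor 3. From low to high, the group means were 262 ± 77.9 CPM (parental GC), 753 ± 272 CPM (GR KO GC), 1316 ± 659 CPM (parental control) and 1571 ± 446 CPM (GR KO control). The lowest group was apart from the next, whereas GR KO GC overlapped parental control and the control groups overlapped each other. Clobetasol gave a log2 fold change of the sum of −2.33 (SE 0.321), 5.03-fold lower, in parental tumors and −1.06 (SE 0.309), 2.09-fold lower, in GR KO tumors.

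*BC100530* held 75.2 ± 5.38% of the members' counts over the 20 tumors (65.9% to 86.1%), *Stfa3* 18.3 ± 5.19%, *Stfa1* 5.06 ± 2.45%, *Stfa2* 1.15 ± 0.708% and *BC117090* 0.244 ± 0.108%. The make-up of the sum differed between treatments as well. The mean share of *BC100530* was 71.9% in parental control, 79.3% in parental GC, 70.9% in GR KO control and 78.8% in GR KO GC tumors. That of *Stfa3* was 21.6%, 17.1%, 21.6% and 12.9% in those groups, and that of *Stfa1* 5.47%, 2.67%, 5.64% and 6.45%. The members varied together from tumor to tumor, with Pearson correlations of log2 levels over 20 tumors from 0.720 (*Stfa2* with *BC117090*) to 0.930 (*BC100530* with *Stfa3*). *BC100530* had r = 0.927 with *Stfa1*, 0.857 with *Stfa2* and 0.831 with *BC117090*. These correlations pool treated and control tumors and are descriptions.

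Clobetasol against control in parental tumors asked how the topical glucocorticoid changed tumor RNA when tumor cells carried the receptor. With edgeR, calling a gene at an adjusted p under 0.05 and a fold change of at least 1.5, 4 of the 5 members past the filter met the rule as lower (*Stfa1*, *Stfa2*, *Stfa3* and *BC100530*), which describes the values that chose them. Of 15919 genes tested, 0.345% were called lower and 0.433% higher. For *Stfa1*, *Stfa3* and *BC100530* every treated tumor was below every control, as for 1.71% of all genes. The call of *Stfa2* was lost in 14 of 20 fits that each left out 1 tumor: parental control 3 or 5, parental GC 1, 2, 3 or 4, GR KO control 2, 3 or 5, or any of GR KO GC 1 to 5. Over those 20 fits 60 to 178 genes were called in all, against 124 with every tumor. The median log2 fold change of all genes was 0.00.

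Clobetasol against control in GR KO tumors asked the same where only host cells carried the receptor. *Stfa3* was the 1 member that met the call rule, as lower; with DESeq2 *BC100530* met it too. Of all genes tested, 3.71% were called lower and 2.71% higher. For *Stfa3* and *BC117090* the groups did not overlap, as for 2.41% of genes. *BC100530* was called as well in fits without parental control 5, GR KO control 3 or GR KO control 4, which made 2 members. Those fits called 1005, 803 and 2411 genes in all, against 1022 with every tumor. The all-gene median was 0.05.

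The difference between these effects was fitted as an interaction term and is described only. Its log2 values, parental effect minus GR KO effect, were −2.87 (SE 0.763) for *Stfa1*, −1.90 (SE 0.935) for *Stfa2*, −0.76 (SE 0.483) for *Stfa3*, −1.27 (SE 0.428) for *BC100530*, −0.76 (SE 0.709) for *BC117090* and −1.27 (SE 0.434) for the sum. All were negative, which is a larger decrease in parental tumors. By edgeR 0 members were called, with 2 at an unadjusted p under 0.05 (*Stfa1* and *BC100530*), and DESeq2 called 1, *Stfa1*. Of 15919 genes 3192 had an unadjusted p under 0.05, 0.0691% were called lower and 0.126% higher by edgeR, and DESeq2 called 784. *Stfa1* was called by edgeR in the fit without GR KO control tumor 4, which called 1284 genes in all against 31 with every tumor. Without parental control tumor 5 the difference was −2.05 for *Stfa1* and −0.95 for *Stfa2*.

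Among control tumors, GR KO and parental levels of the cluster overlapped for every member. The log2 fold changes of GR KO over parental were −0.05 (SE 0.525) for *Stfa1*, 0.83 (SE 0.649) for *Stfa2*, 0.33 (SE 0.341) for *Stfa3*, 0.25 (SE 0.302) for *BC100530* and 0.42 (SE 0.498) for *BC117090*, and 0.26 (SE 0.306) for the sum. By edgeR 0 members were called, 0 had an unadjusted p under 0.05 and DESeq2 called 0. Of all genes, 0.986% were called lower and 1.26% higher, and groups without overlap occurred in 1.98% (lower) and 1.94% (higher) against 0 members. Parental control tumor 5 carried much of the parental mean of *Stfa1*: without it that gene's log2 fold change was 0.76. For *Stfa2* it was then 1.77.

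Among GC-treated tumors the cluster was higher in GR KO than in parental tumors. *Stfa1* had a log2 fold change of 2.82 (SE 0.569), 7.04-fold, and *BC100530* 1.52 (SE 0.309), 2.87-fold; those 2 members were called higher, as were 0.195% of genes, while 0.440% of genes and 0 members were called lower. *Stfa2* was at 2.73 (SE 0.704), *Stfa3* at 1.10 (SE 0.346), *BC117090* at 1.17 (SE 0.513) and the sum at 1.52 (SE 0.313). DESeq2 called 3 members. For *Stfa1*, *Stfa2*, *BC100530* and *BC117090* every GR KO tumor was above every parental tumor, as for 1.53% of genes. These calls turned on single tumors. There were 0 member calls by edgeR in the fits without parental GC 4, GR KO GC 3 or GR KO GC 5, 1 (*BC100530*) without parental GC 2, and 3 (*Stfa2* added) without parental control 5. In that order the fits called 54, 46, 40, 47 and 114 genes in all, against 101 with every tumor, so calls over all genes moved too. The comparisons share groups: each clobetasol comparison uses the control tumors of the genotype comparison, and each genotype comparison uses tumors of both clobetasol comparisons.

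All 7 members lie within 298.582 kb of chromosome 16 (GRCm38, GENCODE M21, 7 of 7 found), 3 on the plus and 4 on the minus strand. In order they are *Stfa2l1* (ENSMUSG00000059657, chr16:36156811-36161953, plus), *Gm5483* (chr16:36184212-36188111, plus), *Stfa1* (ENSMUSG00000071562, chr16:36276951-36285373, plus), *BC117090* (chr16:36321665-36334332, minus), *BC100530* (chr16:36359382-36367748, minus), *Stfa2* (chr16:36403992-36408457, minus) and *Stfa3* (chr16:36450537-36455392, minus). The members with the most counts are thus not a single block: *Stfa1* stands on the other strand from *BC100530*, *Stfa2* and *Stfa3*. Other stefin-type genes lie among or beside them, namely *Csta1* (named *Csta* in the counts), *Gm5416*, *2010005H15Rik* and the pseudogene *Gm4758*. Of 7 genes of other kinds within 200 kb on either side 6 were tested (*Parp9*, *Kpna1*, *Wdr5b*, *Fam162a*, *Ccdc58* and *Cd86*; *Casr* was not). By edgeR 0 of the 6 were called with clobetasol in either line, 0 had an unadjusted p under 0.05 there and DESeq2 called 0. Their log2 fold changes ran from −1.50 to 0.67 in parental and from −0.04 to 1.45 in GR KO tumors.

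**Figure D2:**
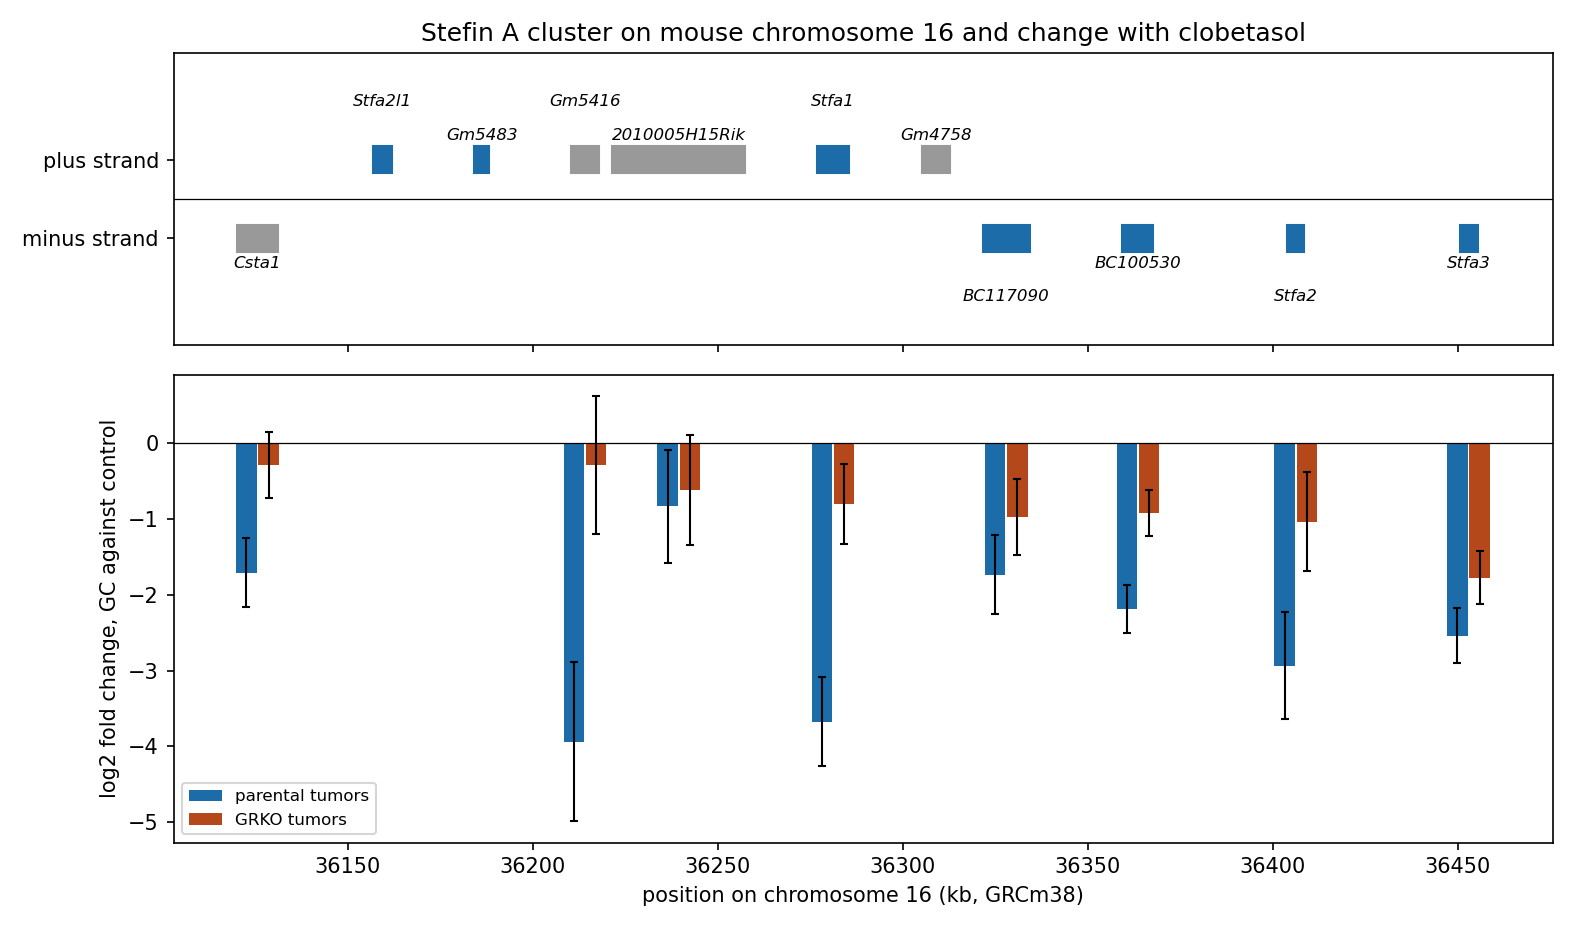
Map of the cluster on chromosome 16 by strand, in kb, above bars of the log2 fold change of clobetasol against control ± SE (n = 5 a group) in parental (blue) and GR KO (orange) tumors, with members in blue and other cystatin genes in grey. All bars of members point down, from −0.81 to −3.68; genes not tested have no bar.

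Transcript ends show how far reads can be told apart. Of the 226 stretches of 75 bases in the last 300 bases of each transcript, *Stfa3* shared 0 exactly with another gene of the locus. *BC100530* shared 118 (52.2%), with *BC117090* and *Stfa1*; *BC117090* shared 64 (28.3%), *Stfa1* 54 (23.9%), *Stfa2* 23 (10.2%), *Stfa2l1* 22 (9.73%) and *Gm5483* 60 (26.5%). Over stretches of 50 bases the shared part was 66.1% for *BC100530*, 51.0% for *Stfa1*, 45.4% for *BC117090*, 33.9% for *Gm5483*, 25.1% for *Stfa2*, 24.3% for *Stfa2l1* and 0 for *Stfa3*. The read length was not given. *Stfa1* and *BC100530* were the closest pair, with 96.8% identity over the transcript and 98.7% over the last 300 bases, against a median of 61.8% and a lowest value of 54.2% over 21 pairs. Within its last 300 bases, *Stfa3* thus has no stretch of 50 or 75 bases that matches another gene of the locus exactly. Matches with mismatches, and stretches before those bases, were not compared in this way. The study states default settings for its tools, and by default featureCounts leaves out reads that align to several places, so reads from shared stretches would be missing from the counts of *BC100530*, *Stfa1* and *BC117090*.

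Promoters of the members are printed to show a stretch that every member with an entry holds. RefSeq promoters (GRCm38.p6, 250 bases before to 50 after the annotated start) were at hand for 6 of 7 members; *BC117090* is named only. No stretch found in all 6 is longer than 13 letters. ACCTTTAAAACCC, in capitals in the lines that follow, is the first found of that length, and others of that length were not listed. It starts 33 bases before the RefSeq start of *Stfa1*, 32 for *Stfa2*, 34 for *Stfa3*, 36 for *Stfa2l1*, 12 for *BC100530* and 32 for *Gm5483*. The GENCODE positions given above place the starts of *Stfa1*, *Stfa2* and *BC100530* farther upstream. By those positions the stretch lies inside these genes, and RefSeq and GENCODE starts are the same for *Stfa3*, *Stfa2l1* and *Gm5483*. Of 32851 mouse promoters of that length, 9 hold it on either strand (0.0274%), all 9 on chromosome 16: the 6 members, *Csta3* (which is *Gm5416*), *Cstdc3* and *Gm7260*. Each line gives 150 bases, 5′ to 3′ on the gene's strand: *BC100530* from chr16:36367541-36367690 (minus), *Stfa1* from chr16:36277028-36277177 (plus), *Stfa3* from chr16:36455363-36455512 (minus), *Stfa2* from chr16:36408334-36408483 (minus), *Stfa2l1* from chr16:36156691-36156840 (plus) and *Gm5483* from chr16:36184092-36184241 (plus).
BC100530: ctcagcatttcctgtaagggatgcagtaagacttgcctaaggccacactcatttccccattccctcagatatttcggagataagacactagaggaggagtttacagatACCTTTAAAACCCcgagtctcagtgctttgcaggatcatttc
Stfa1: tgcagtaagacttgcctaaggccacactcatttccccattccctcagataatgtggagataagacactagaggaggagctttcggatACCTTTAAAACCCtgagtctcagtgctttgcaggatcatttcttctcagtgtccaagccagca
Stfa3: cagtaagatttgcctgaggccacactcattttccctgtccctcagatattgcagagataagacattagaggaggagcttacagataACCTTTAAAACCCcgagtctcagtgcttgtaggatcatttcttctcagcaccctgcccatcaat
Stfa2: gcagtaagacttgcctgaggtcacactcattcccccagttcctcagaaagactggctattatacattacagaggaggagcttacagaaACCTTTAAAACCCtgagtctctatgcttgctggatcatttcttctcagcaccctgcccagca
Stfa2l1: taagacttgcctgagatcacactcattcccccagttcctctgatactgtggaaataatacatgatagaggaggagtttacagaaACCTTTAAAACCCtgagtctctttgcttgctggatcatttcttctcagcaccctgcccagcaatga
Gm5483: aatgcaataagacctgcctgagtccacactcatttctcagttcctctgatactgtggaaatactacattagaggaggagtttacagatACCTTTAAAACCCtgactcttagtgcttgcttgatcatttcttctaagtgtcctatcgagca

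Over the full promoters, identity in 15 pairs ran from 67.8% to 90.5% with a median of 75.1%. The lowest pair was *BC100530*, the most abundant member, with *Gm5483*, which had few counts. *Stfa1* and *BC100530* were at 83.8%. *Stfa2l1*, with no more than 3 counts in any tumor, and *Stfa2* were the pair at 90.5%. Motifs were searched on both strands. The glucocorticoid receptor half-site AGAACA was in 0 of 6 promoters and in 19.0% of all promoters, and the full palindromic glucocorticoid response element was in 0 of 6 and in 0.00913%. The ETS and PU.1 core GAGGAA was in 6 of 6 and in 28.3% of all promoters. The searched letters do not overlap the shared stretch, and a match or its absence in 300 bases is a description only.

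Other cystatins were listed to set the cluster beside its family, 18 genes of which 9 passed the filter in tumors. With clobetasol 8 of 9 were lower in parental tumors (median log2 fold change −0.84, against 0.00 for all genes) and 6 of 9 in GR KO tumors (−0.29, against 0.05). By edgeR 0 were called in either, with 3 and 2 at an unadjusted p under 0.05 and 2 and 1 called by DESeq2. *Csta1*, the stefin A gene next to the cluster, was at 32.0, 35.3, 103, 23.3 and 162 CPM in parental control and 29.7, 14.7, 15.3, 13.9 and 35.5 CPM in parental GC tumors. Those groups overlapped, and the log2 fold change was −1.71 (SE 0.453, adjusted p = 0.0754, below the control mean in 5 of 5). In GR KO tumors *Csta1* gave −0.29 (SE 0.440). *Gm5416*, chosen after its values were seen as the other gene that DESeq2 called, gave −3.94 (SE 1.05, adjusted p = 0.0773, 5 of 5 below the mean) in parental and −0.29 (SE 0.909) in GR KO tumors. It was at 0.509, 3.45, 19.1, 0.379 and 26.8 CPM in parental control and 0.0510, 0, 0.0884, 0.837 and 2.34 CPM in parental GC tumors. Treated tumors 1, 2 and 3 had 1, 0 and 2 counts, under the floor, and treated tumors 4 and 5 exceeded control tumors 1 and 4. Its parental value turned on single tumors: −3.14 (adjusted p = 0.289) without parental control 5 and −5.32 (adjusted p = 0.0377, called) without parental GC 5. Over 20 tumors the summed members had r = 0.797 with *Csta1*, 0.765 with *Gm5416* and 0.259 with *Cstb*, the gene of stefin B.

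Lysosomal cysteine proteases were listed beside the stefins, 10 cathepsins and legumain (*Lgmn*), which is not a papain-like enzyme. All 11 were tested; 1 was called lower in parental tumors and 2 in GR KO tumors, 0 were called higher, and the medians were −0.17 and 0.37. *Ctsl*, cathepsin L, was at 583, 509, 932, 654 and 858 CPM in parental control and 442, 181, 438, 189 and 442 CPM in parental GC tumors. It fell there in 5 of 5 tumors (log2 fold change −1.06, SE 0.254, adjusted p = 0.0457). That call held in 5 of 20 fits with 1 tumor left out, those without parental control 2, parental GC 1 or 3, or GR KO control 1 or 4. The interaction for *Ctsl* was −1.43 (SE 0.358, adjusted p = 0.0820) by edgeR, which called 0 of the list there with 5 at an unadjusted p under 0.05, whereas DESeq2 called 3, *Ctsk*, *Ctsl* and *Ctsz*. In GR KO tumors *Ctsz* fell by 0.85 on the log2 scale (SE 0.163, adjusted p = 0.00476, 5 of 5) and *Ctsw* by 1.27 (SE 0.340, adjusted p = 0.0279, 5 of 5). The call of *Ctsw* was lost without GR KO control 1 or 2 or GR KO GC 1, 3 or 5. The summed list averaged 3396, 2918, 3337 and 3742 CPM in parental control, parental GC, GR KO control and GR KO GC tumors, led by *Ctsb*. Summed stefin levels had r = 0.482 with *Ctsl*, −0.496 with *Ctsh*, 0.0340 with *Ctsb* and −0.0125 with *Ctss* over 20 tumors.

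The 10 tested genes whose log2 level over 20 tumors was most like the summed cluster included keratins of stressed epidermis, calprotectin subunits and a gene of sterol synthesis. They were chosen for following a sum that itself differed between treatments, so their own difference between treatments is a description of that choice. *Krt6b*, a keratin of activated epidermis, was the closest (r = 0.924). It was at 604, 869.8, 1328, 677 and 5196 CPM in parental control and 177, 285, 242, 265 and 559 CPM in parental GC tumors, and at 3770.2, 5245, 1983, 1579 and 3954 CPM in GR KO control and 451, 746, 1061, 1477 and 1051 CPM in GR KO GC tumors. Treated tumors of both lines lay below all their controls, with log2 fold changes of −2.50 (SE 0.512) in parental tumors, −1.50 without parental control tumor 5, and −1.79 (SE 0.499) in GR KO tumors. In cultures it had 5 counts in all. *Gsdmc*, an epidermal gasdermin (r = 0.921), gave −2.14 (SE 0.380) and −1.75 (SE 0.372) in parental and GR KO tumors.

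Also among the most like the cluster were *Krt16* (r = 0.895), *Gjb2*, a gap junction gene of skin (0.888), *Sprr1a*, a cornified envelope gene (0.881), *S100a9* (0.870), *Aplnr*, the apelin receptor (0.850), *S100a8* (0.846) and *Cyp51*, of sterol synthesis (0.839). With clobetasol in parental and in GR KO tumors, the log2 fold change was −1.39 and −1.23 for *Krt16*, −3.001 (−2.41 without parental control tumor 5) and −1.18 for *Gjb2*, −3.67 (−4.27 without parental GC tumor 5) and −0.92 for *Aplnr* and −1.11 and −0.87 for *Cyp51*. *Aplnr* averaged 1.49, 0.112, 2.59 and 1.37 CPM in parental control, parental GC, GR KO control and GR KO GC tumors, at the floor in treated parental tumors, and its parental call was lost in 7 of 20 fits with 1 tumor left out. Within the 10 control and the 10 GC-treated tumors, each of which pools both lines, r with the cluster was 0.868 and 0.918 for *Krt6b*, 0.873 and 0.857 for *Gsdmc*, 0.791 and 0.852 for *Krt16*, 0.620 and 0.959 for *Gjb2*, 0.675 and 0.877 for *Sprr1a*, 0.662 and 0.816 for *Aplnr* and 0.560 and 0.712 for *Cyp51*. For *S100a9* it was 0.874 and 0.847, and for *S100a8* 0.861 and 0.880.

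Neutrophils are a known source of stefin A, and 15 of 20 listed neutrophil markers passed the filter in tumors and 0 in cultures. With clobetasol 13 of 15 were lower in parental (median −0.75) and 9 of 15 in GR KO tumors (median −0.06). By edgeR 2 were called lower in parental tumors, *S100a8* and *S100a9*, and 1 in GR KO tumors, *Il1r2*, with 0 called higher. At an unadjusted p under 0.05 were 5 in parental and 6 in GR KO tumors. DESeq2 called 3 in parental tumors (*Mmp9* added) and 1 in GR KO tumors, *Il1r2*. *S100a9* was at 5.48, 20.8, 103, 8.33 and 567 CPM in parental control, 2.70, 2.98, 5.04, 2.51 and 8.44 CPM in parental GC, 94.3, 214, 79.4, 66.3 and 303 CPM in GR KO control and 24.1, 5.82, 51.7, 47.4 and 38.1 CPM in GR KO GC tumors. Parental control tumors 3 and 5, high for *Stfa1* and *Stfa2*, were also the high ones here. *S100a9* fell by 5.03 on the log2 scale in parental tumors (SE 0.981, adjusted p = 0.0109), with 5 of 5 treated tumors below the control mean and 4 of 5 below the lowest control. Without parental control tumor 5 it gave −2.98 (adjusted p = 0.0657) and was not called. *S100a9* gave −2.18 (adjusted p = 0.119) in GR KO tumors; the interaction was −2.85 (adjusted p = 0.192). *S100a8*, at 11.3, 41.1, 128, 11.7 and 704 CPM in parental control and 4.24, 4.24, 3.36, 17.8 and 27.9 CPM in parental GC tumors, fell by 3.96 (SE 0.939, adjusted p = 0.0437), with 5 of 5 below the control mean and 3 of 5 below the lowest control. Without parental control tumor 5 it gave −2.05 (adjusted p = 0.316), and its call was lost as well without parental control 3, any of parental GC 1 to 4, GR KO control 2 or 3, or GR KO GC 1, 3 or 5. Without parental GC 5 it gave −4.59. *S100a8* gave −1.91 (adjusted p = 0.173) in GR KO tumors, with an interaction of −2.06 (adjusted p = 0.331). *Il1r2* fell by 1.02 in GR KO tumors (SE 0.193, adjusted p = 0.00439, 5 of 5).

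Genes of the neutrophil list differed widely in level. *Ly6g* and *Mrgpra2b* had no count in 20 of 20 tumors, and *Elane* had none in 16, *Cd177* in 14, *Mpo* in 13, *Ngp* in 12 and *Camp* in 11. Over all tumors the mean level was 0.764 CPM for *Cxcr2*, 3.07 CPM for *Csf3r* and 3.75 CPM for *Retnlg*, beside 167 CPM for *S100a8*, 82.6 CPM for *S100a9* and 231 CPM for *Mmp9*. *Il1r2*, *Hdc*, *Clec4d*, *Lcn2*, *Trem1*, *Retnlg* and *Csf3r* had counts in 20 of 20 tumors, with median counts of 479.5, 387.5, 279.5, 99.5, 86.5, 75.5 and 41.5. The sum was 241, 681, 894, 276 and 2188 CPM in parental control, 230.4, 208, 335, 186 and 352 CPM in parental GC, 704, 1083, 551, 425 and 1302 CPM in GR KO control and 305, 176, 459, 431 and 267 CPM in GR KO GC tumors. *Mmp9* was its most abundant gene, except in GR KO control 1, 2 and 5 and GR KO GC 3 and 5, where it was *S100a8*. In single cultures the sum was 0 to 3.31 CPM. The part of these markers in the levels of the cluster was not tested.

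For *BC100530* the relation to marker sums was described by 6 correlations of log2(CPM + 1), which carry no p because the gene was chosen on these tumors and both measures differ between treatments. Over 20 tumors its level had r = 0.761 and rho = 0.798 with the neutrophil sum, and r = 0.709 without the 2 tumors farthest from the median of that sum. Within the 10 control tumors r was 0.825 and rho 0.855, with r = 0.660 without the 2 farthest. Within the 10 GC-treated tumors r was 0.402 and rho 0.370, with r = 0.441 without 2. With *S100a8* and *S100a9* left out of the sum, an alternative chosen after seeing the data, r was 0.451 over 20 tumors, 0.432 in controls and −0.328 in treated tumors. Leaving out 2 tumors as well gave 0.247, 0.0698 and 0.0672. For the summed members r with the neutrophil sum was 0.771 over 20 tumors, 0.854 in controls and 0.404 in treated tumors.

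Keratinocytes are the other known source, and 16 of 16 listed markers passed the filter in tumors and 3 of 16 in cultures. Their medians with clobetasol were 0.00 in parental and −0.08 in GR KO tumors. By edgeR 2 were called in parental and 5 in GR KO tumors. DESeq2 called 4 in parental tumors (*Sprr1b* and *Sfn* added) and 5 in GR KO tumors. In parental tumors *Sprr1a* fell by 1.51 on the log2 scale (adjusted p = 0.0318, 5 of 5) and *Lor*, loricrin, rose by 1.19 (SE 0.244, adjusted p = 0.0149, 5 of 5). The call of *Lor* was lost without parental control 3 or 5, and that of *Sprr1a* without either of these or without parental GC 1, 3, 4 or 5. In GR KO tumors *Sprr1a* fell by 1.10 (adjusted p = 0.0478, 5 of 5) and the basal keratin *Krt14* by 1.42 (adjusted p = 0.0302, 5 of 5), while the suprabasal *Krt1* rose by 1.85 (adjusted p = 0.00234), *Krt10* by 2.13 (adjusted p = 0.0136) and *Flg* by 1.28 (adjusted p = 0.0122), in 5 of 5 each. In fits with 1 tumor left out, *Krt10* gave 1.54 (adjusted p = 0.0636) without GR KO GC 5 and 3.06 without GR KO control 4. *Krt14* lost its call without GR KO control 1, 2 or 3 or GR KO GC 1, 2, 3 or 5, and *Sprr1a* kept its own in 9 of 20 fits. *Lor*, a late differentiation gene, was at 424, 348, 252, 447 and 308 CPM in parental control and 799, 922, 664, 723 and 963 CPM in parental GC tumors. It ran opposite to the cluster over 20 tumors (r = −0.819, place 15899 of 15919 genes). The list therefore held genes that moved with the cluster and genes that moved against it.

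The keratinocyte sum was 1952, 1797, 2127, 1811 and 4045 CPM in parental control, 2498, 3141, 2269.8, 2729 and 2736 CPM in parental GC, 4128, 4738, 3804, 2756 and 2516 CPM in GR KO control and 1714, 2022, 2565, 2449.5 and 2338 CPM in GR KO GC tumors. *Krt14* led it, except in parental GC 1, 2, 3 and 5, where *Lor* did. In single cultures it was 14.3 to 29.1 CPM. Treated parental tumors were above 4 of 5 parental controls, whereas the mean in GR KO tumors was lower with GC (2218 ± 347 CPM) than with control (3588 ± 936 CPM). Without *Krt14* these means were 1367 ± 155 and 1311 ± 355 CPM, and in parental tumors 1956 ± 278 CPM with GC and 1332 ± 159 CPM with control. *BC100530* had r = 0.335 and rho = 0.320 with this sum over 20 tumors, and r = 0.101 without the 2 farthest tumors. Within controls r was 0.643 and rho 0.661, or r = 0.480 without 2. Within treated tumors r was −0.250 and rho −0.285, or r = −0.263 without 2. The part of keratinocytes in the levels of the cluster was not tested.

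**Figure D3:**
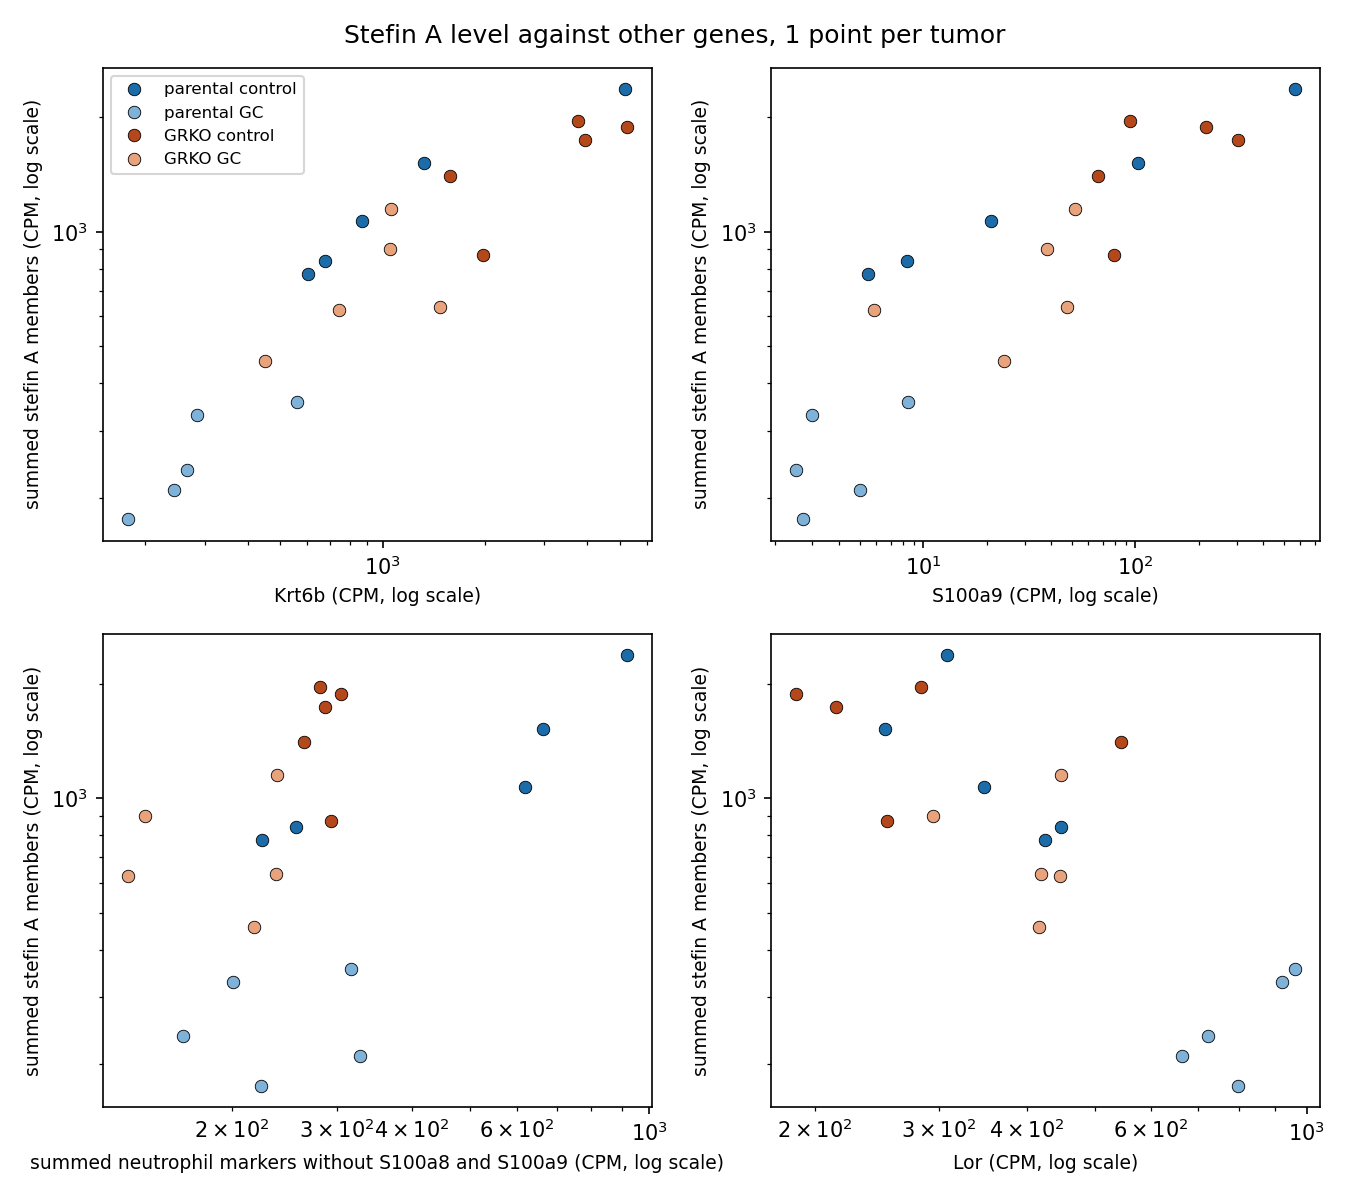
Summed level of the 7 members (CPM, log axis) against *Krt6b*, *S100a9*, the neutrophil marker sum without *S100a8* and *S100a9*, and *Lor* (CPM, log axes), with 1 point per tumor and groups by color. Points follow a rising line for *Krt6b* (r = 0.924) and *S100a9* (r = 0.870) and a falling one for *Lor* (r = −0.819), and scatter widely for the sum without *S100a8* and *S100a9* (r = 0.463).

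Markers of other cell types that a skin tumor can hold were set beside the cluster as well. Of 9 macrophage and monocyte markers, 0 were called in parental tumors by edgeR (3 at an unadjusted p under 0.05, 0 by DESeq2). In GR KO tumors edgeR called 1, *Mrc1* (3 at an unadjusted p under 0.05), and DESeq2 called 2, *Mrc1* and *Ccr2*. *Mrc1* rose there (edgeR log2 fold change 1.20, adjusted p = 0.0267, 5 of 5). It was not called without GR KO control 1, 2 or 3 or GR KO GC 1, 3 or 5. Medians of these 9 markers were −0.06 and −0.03 in parental and GR KO tumors. Their sum averaged 4822, 6336, 7369.8 and 5513 CPM in parental control, parental GC, GR KO control and GR KO GC tumors, led by *C1qa*. Of 5 dendritic cell markers 0 were called in parental tumors (0 at an unadjusted p under 0.05, 0 by DESeq2), and *Itgax* (−1.80, adjusted p = 0.00116) and *Zbtb46* (−0.99, adjusted p = 0.0470) fell in GR KO tumors in 5 of 5 each, the latter called in 5 of 20 fits with 1 tumor left out, with medians of −1.10 and −1.27 and summed means of 91.1, 74.4, 169 and 57.7 CPM. Of 5 mast cell markers 4 were tested and 0 called with clobetasol in either line (2 at an unadjusted p under 0.05 and 1 by DESeq2 in each), with medians of 0.48 and −0.05 and summed means of 163, 257, 117 and 116 CPM. *Ptprc*, the pan-leukocyte gene, averaged 45.6, 45.1, 45.6 and 40.7 CPM and was called in neither (0 at an unadjusted p under 0.05, 0 by DESeq2). Of 7 melanocyte lineage markers 5 were tested and 0 called in either line (1 and 0 at an unadjusted p under 0.05, 0 by DESeq2), with medians of −1.75 and 0.30 and summed means of 42.8, 46.0, 33.1 and 38.9 CPM.

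Among GC-treated tumors, GR KO against parental, 4 of 4 tested mast cell markers were lower (median −1.19). *Mcpt4* was called at −1.38 (SE 0.243, adjusted p = 0.00517, 5 of 5) and *Tpsb2* at −1.29 (SE 0.265, adjusted p = 0.0194, 5 of 5). The call of *Tpsb2* was lost without parental GC 2 or 4 or GR KO GC 1, 3 or 5. In the other lists edgeR called 0 there. At an unadjusted p under 0.05 were 6 neutrophil markers, 5 keratinocyte markers, 4 of the protease list, 2 other cystatins, 2 macrophage markers and 0 dendritic cell, melanocyte or pan-leukocyte markers. DESeq2 called 1 neutrophil marker (*S100a8*), 1 keratinocyte marker (*Lor*) and 0 in the rest of these. Medians were 0.02 for neutrophil, −0.25 for keratinocyte, 0.03 for macrophage, −0.34 for dendritic cell and 0.71 for melanocyte markers, against 0.01 for all genes. The part of these cell types in the levels of the cluster was not tested.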

How the data were processed

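The authors deposited raw integer read counts, in the unit counts, for 39179 genes in 31 samples, made with Trim Galore 0.6.5, STAR 2.6.1d and featureCounts on Ensembl 75 (GRCm38). All genes of the 20 tumors were fitted together with edgeR 4.0.16 (quasi-likelihood, TMM, R 4.3.3), and likewise the 11 cultures. Genes with at least 0.5 CPM in at least 3 samples were tested, 15919 in tumors and 12525 in cultures, and p-values were adjusted by Benjamini-Hochberg over them. A call needed an adjusted p under 0.05 and a fold change of at least 1.5. Summed members replaced the member genes in a further fit. DESeq2 1.42.0, other scalings, filters and pseudocounts, a replicate block and each tumor left out were run as alternatives. The 7 members and the 9 lists (92 genes besides the members) were chosen with earlier results of these data known. Named genes were drawn from the members, the 10 tested genes most correlated with their sum, called list genes and defining markers. Correlations with marker sums are given without the planned permutation p, because the members were chosen on these tumors. Promoters came from RefSeq and positions and transcripts from GENCODE M21. The procedure was tested on simulated data.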

Additional observations from a re-analysis of the deposited data

Results flagged for a closer look

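In 32 groups of 5 tumors, the most distant tumor's gap to its nearest neighbour was compared with the range of the group, and in 4 groups the ratio exceeded Dixon's critical value. Chance gives about 1 in 20 groups where values vary, but in each of these 4 the other 4 tumors were at 0, so any count exceeds the critical value and the number of groups says nothing. All concern members that did not pass the filter. *Gm5483* was at 0.820 CPM (22 counts) in parental control tumor 5, with the other controls at 0. It was at 0.0442 CPM (1 count) in parental GC tumor 3. *Stfa2l1* was at 0.0386 CPM (1 count) in GR KO control tumor 4 and at 0.0539 CPM (1 count) in GR KO GC tumor 2, with the rest of both groups at 0.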

How the results depend on the processing

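The alternative values numbered 340 (members called, fold changes of the summed members and their correlations). Of these, 329 kept their direction and stayed within the spread or within 1.5 times the count. With *S100a8* and *S100a9* left out of the neutrophil sum, a correlation turned. For the summed members in the 10 GC-treated tumors, r went from 0.404 to −0.338. With DESeq2 the members called were 2 with clobetasol in GR KO tumors and 1 for the difference of effects, and 3 among treated tumors. With replicate number as a block 2 were called in GR KO tumors. Among treated tumors the block called 3 (*Stfa2* added), and no filter beyond 1 count also called 3 there. The block gave 164, 994, 363, 160 and 144 genes in all (parental clobetasol, GR KO clobetasol, genotype in controls, genotype in treated tumors, difference), against 124, 1022, 358, 101 and 31. Same-numbered tumors were not treated as pairs in the main fit. Their mean correlation was 0.0583 over 30 pairs, and 7 of 20 tumors correlated best with their own number. Whether tumors of the same number shared a factor was not tested. Leaving out 1 tumor gave 3 to 4, 1 to 2, 0 to 0, 0 to 3 and 0 to 1 members called, and 60 to 178, 303 to 2411, 61 to 1762, 40 to 149 and 0 to 1284 genes in all. The lowest of these came without parental control 3, GR KO GC 3, GR KO control 2, GR KO GC 5 and, for the difference, either parental control 3 or GR KO control 2, and the highest without parental control 2 and, for the other 4 comparisons, GR KO control 4. DESeq2 called 376, 1756, 1001, 293 and 784 genes.

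Alternatives chosen after seeing the data left out each tumor for named list genes, *Gm26924*, or the 2 tumors in which it took over 10% of counts; the latter gave 3, 1, 0, 2 and 0 members and 134, 286, 44, 145 and 4 genes called. In parental tumors *Stfa2* also lost its call there and with only the 2 groups compared. A filter of at least 10 counts in every sample left 3 members to test. No member was tested in cultures, and the alternatives were not run there; the difference of effects needs 4 groups, so it could not be fitted with 2. Levels under 3 counts were not detectable at this depth.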
